A study of Homo sapiens with 6 samples.

Results

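The genes described here are 8 members of the immediate-early class, namely EGR1, EGR2, EGR3, IER2, IER3, IER5, PHLDA1 and TRIB1, taken by name from the 58735 genes listed in the deposited table. Messenger RNA was sequenced in 6 libraries of U937, a human monocyte-like line that is usually classed as a histiocytic lymphoma and that the labels call an acute promyelocytic leukaemia cell. In 3 libraries the genotype is labelled NC, the control, and in the other 3 it is labelled oeBCL6B, for cells made to overexpress BCL6B, a zinc finger relative of the repressor BCL6. The series design describes lentiviral overexpression in acute myeloid leukaemia lines. The labels name no stimulus, no time after transduction and no clone, and every library carries the treatment label "phenotyping experiment" and batch label 1. They do not say that replicates were separate cultures, so p-values reflect only how these 6 libraries vary, and that variation may be technical.

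Immediate-early genes are switched on within minutes of a growth factor, cytokine or stress signal, from factors already present in the cell. A main route runs from RAS through RAF, MEK and ERK to the ternary complex factors such as ELK1, which sit beside serum response factor (SRF) on DNA elements called CArG boxes. EGR1, EGR2 and EGR3 encode zinc finger transcription factors that bind GC-rich sites, and in monocytic cells EGR1 and EGR2 are known for their part in macrophage differentiation. IER2, IER3 and IER5 encode small proteins unrelated to the EGR factors, PHLDA1 encodes a pleckstrin homology domain protein, and TRIB1 encodes a pseudokinase that brings C/EBP alpha to the ubiquitin ligase COP1. The study's title names MAPK signalling, a pathway that induces these genes.

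The start regions of EGR1, EGR2 and IER2 are shown because they set the CArG-bearing EGR genes beside IER2, the most abundant of the 8 and the one with the firmest rise. They were chosen with the values known, and whether any motif goes with a change was not tested. Each region shown covers a single transcript start. It is 300 bases long, 250 before and 50 after a RefSeq transcript start in GRCh38.p14, and is written 5′ to 3′ on the gene's strand. Capitals mark CArG boxes in EGR1 and EGR2 and the GC box GGGCGG, on either strand, in IER2. EGR1 is at chr5:138465229-138465528 on the plus strand, EGR2 at chr10:62816317-62816616 on the minus strand and IER2 at chr19:13150161-13150460 on the plus strand.
EGR1: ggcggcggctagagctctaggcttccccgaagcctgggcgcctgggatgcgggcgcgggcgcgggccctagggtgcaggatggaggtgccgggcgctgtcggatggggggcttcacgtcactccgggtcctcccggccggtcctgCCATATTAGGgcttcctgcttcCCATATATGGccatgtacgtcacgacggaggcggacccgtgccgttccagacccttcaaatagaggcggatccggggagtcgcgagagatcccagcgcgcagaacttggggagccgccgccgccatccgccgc
EGR2: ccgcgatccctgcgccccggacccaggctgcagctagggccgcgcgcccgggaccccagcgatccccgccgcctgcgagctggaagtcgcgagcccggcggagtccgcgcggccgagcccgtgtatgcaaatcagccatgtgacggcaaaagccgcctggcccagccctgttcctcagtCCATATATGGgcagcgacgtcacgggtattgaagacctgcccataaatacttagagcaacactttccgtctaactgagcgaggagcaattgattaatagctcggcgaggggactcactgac
IER2: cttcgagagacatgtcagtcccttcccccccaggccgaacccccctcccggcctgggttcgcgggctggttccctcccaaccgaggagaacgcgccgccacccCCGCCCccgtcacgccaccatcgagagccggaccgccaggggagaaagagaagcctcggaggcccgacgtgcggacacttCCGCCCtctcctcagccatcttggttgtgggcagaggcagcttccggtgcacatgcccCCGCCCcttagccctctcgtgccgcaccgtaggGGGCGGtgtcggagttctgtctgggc

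RefSeq windows were searched for 5 of the 8 genes, with 3 alternative starts for EGR2 and 1 each for EGR1, IER2, IER5 and PHLDA1. No window is shown or searched for EGR3, IER3 and TRIB1. For EGR3 and TRIB1, which lie on chromosome 8, this is because windows on that chromosome were left out when member windows were selected. The EGR1 window held 2 CArG boxes, at -105 to -96 and -83 to -74 from the start, and the EGR2 window shown held 1, at -71 to -62. The windows of IER2, IER5 and PHLDA1 and the other 2 EGR2 windows held none, and 1.29% of all 35116 RefSeq windows of this length held at least 1. TGACG, the core of the cyclic AMP response element, occurred 2 times in EGR1, 2 times in the EGR2 window shown and 1 time in IER2, against 24.6% of all windows with at least 1. Among the member windows searched, the BCL6-type core TTCNNNGAA was found in that of EGR1 alone, at -228 to -220. It was held by 7.66% of all windows. The EGR-type site GCGNGGGCG was found in EGR1 and in 1 of the other EGR2 windows, and in 9.43% of all windows. CCGGAA, a core of ETS-type sites, was present in IER2, IER5 and PHLDA1 and in 17.2% of all windows. GGGCGG occurred 4 times in IER2, 4 and 2 times in the other EGR2 windows and 1 time in PHLDA1, and was held by 45% of all windows. All motifs were searched on both strands, and a match is a description of the letters and not a measured binding site.

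Levels are given as the FPKM that the authors deposited, that is, sequenced fragments per kilobase of each gene, scaled to the size of its library. Reads in listed genes numbered 16481014 to 18870186 per library. For BCL6B itself, 0 reads were found in the controls and 1215 to 1712 in each overexpression library, which makes it at least 1311-fold higher against a floor of 3 counts over the control group. Of 12 myeloid markers 11 were tested, 1 rose and 3 fell, or 9.09% and 27.3% against 8.18% and 10.1% of all tested genes. ITGAX rose 1.545-fold, and CD33, LYZ and MPO fell to 0.794, 0.589 and 0.8235 of control. The call of MPO was lost without any 1 of the 6 libraries. SPI1, the myeloid master regulator, stood at 85.8 and 96.9 FPKM (control and overexpression means), while the macrophage marker CD68 was listed near 0, at 0.00878 and 0.0228 FPKM.

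Among the 8 genes, IER2, IER5 and IER3 rose with BCL6B overexpression and none passed the test downwards. EGR1, the best known of the class, stood at 16.2 ± 0.774 FPKM in controls and 16.2 ± 0.547 with overexpression (SD, n = 3 per group). EGR2 and TRIB1 also overlapped between the groups, PHLDA1 was higher in every overexpression library without passing the test, and EGR3 was too low to be tested with the other genes. The test was limma on log2(FPKM + 1) over the 14662 genes with at least 0.5 FPKM in at least 3 libraries, with Benjamini-Hochberg adjusted p at 0.05. By this rule 8.18% of tested genes rose and 10.1% fell, as 1199 rises and 1488 falls, a balance that moved with scaling to 1314 and 1250 (median ratio) or 890 and 1521 (TPM). IER3 entered the test through its 3 overexpression libraries alone, so the count of 3 is no measure of how the class stands against that background. Another filter kept genes with a mean of at least 1 FPKM over all 6 libraries and, like the main filter, did not use the group labels. With it 6 of the 8 were tested and IER2 and IER5 were the 2 that rose. Of all 12281 genes so tested, 1148 rose and 1548 fell. The limma count of members that fell was 0 at an unadjusted p under 0.05 and 0 with voom.

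**Figure D1:**
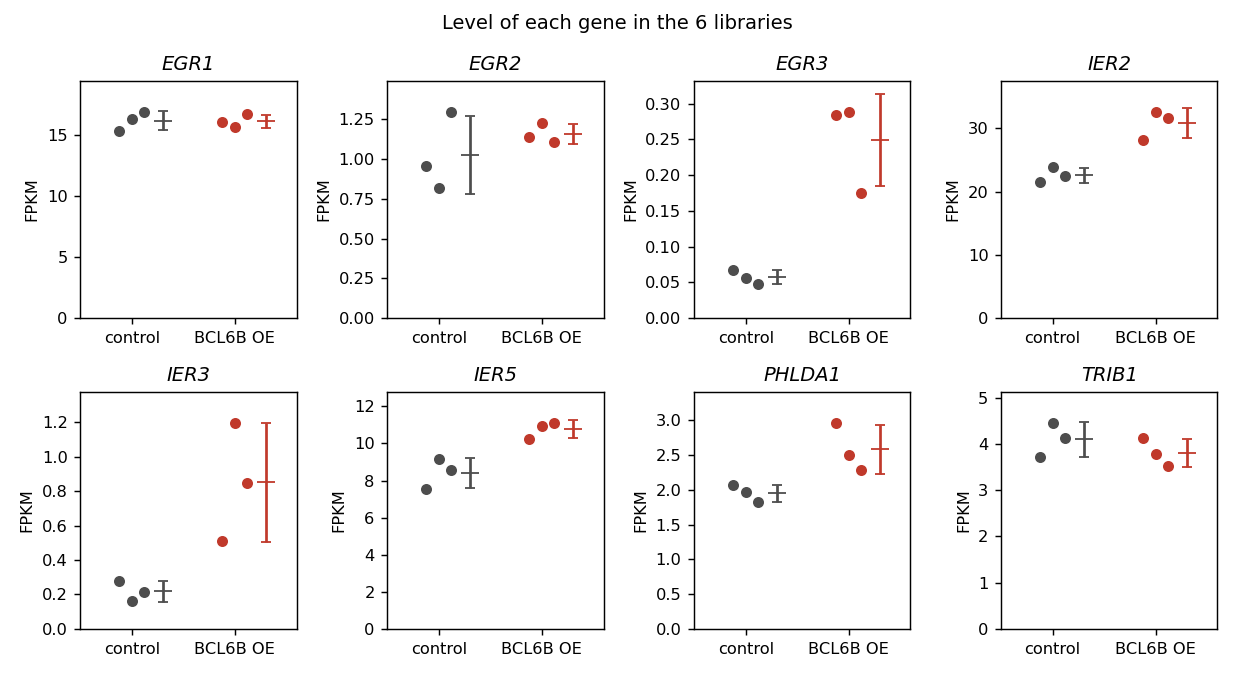
FPKM of each of the 8 genes in the 3 control and 3 BCL6B-overexpressing libraries (points), with the group mean and SD (n = 3) beside them; each panel has its own linear axis from 0. IER2, IER3, IER5, PHLDA1 and EGR3 have groups that do not overlap, while EGR1, EGR2 and TRIB1 do.

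EGR1 (ENSG00000120738, GRCh38 chromosome 5, 138465490 to 138469315, plus strand) encodes a factor widely used as a readout of ERK activity. Its control libraries were at 15.4, 16.3 and 16.9 FPKM and its overexpression libraries at 16.1, 15.6 and 16.7. The overexpression values lay inside the control range. The log2 change was -0.0040 with a 95% interval of -0.13 to 0.12 (limma adjusted p = 0.968, two-sided exact permutation p = 1). Between 877 and 1052 reads per library lay behind these values. The coefficient of variation was 4.78% in controls and 3.39% with overexpression, close to the 3.31% and 3.23% that counting alone gives. This was the narrowest interval among the 7 members tested.

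EGR2 (ENSG00000122877, chromosome 10, 62811996 to 62919900, minus strand), the relative that is also known as a regulator of myelination, was low. Controls were at 0.959, 0.819 and 1.30 FPKM and overexpression libraries at 1.14, 1.23 and 1.11. The highest library was a control, so the groups overlapped. With 55 to 83 reads per library the log2 change of 0.10 had an interval of -0.16 to 0.36 (limma adjusted p = 0.578, exact permutation p = 0.5). The control coefficient of variation was 24%, where counting alone gives 12.2%.

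EGR3 (ENSG00000179388, chromosome 8, 22687659 to 22693302, minus strand), known in T cells as a brake on activation, was the lowest of the 8 and did not reach 0.5 FPKM in any library. Controls were at 0.0672, 0.0565 and 0.0475 FPKM, from 6, 5 and 4 reads. Overexpression libraries were at 0.284, 0.288 and 0.175 FPKM, from 26, 25 and 17 reads. Every overexpression library lay above every control, with a ratio of means of 4.37 (exact permutation p = 0.1, the smallest that 3 libraries against 3 can give). In the fit without a filter on low values, which called 2.36% of 30382 genes higher, EGR3 had a log2 change of 0.24 and limma adjusted p = 0.0498. These counts are small, and the log2(FPKM + 1) scale compresses the change of so low a gene.

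IER2 (ENSG00000160888, chromosome 19, 13150415 to 13154908, plus strand) encodes a nuclear protein induced by serum and growth factors. Controls were at 21.6, 23.9 and 22.4 FPKM and overexpression libraries at 28.2, 32.6 and 31.7. The lowest overexpression library stood above the highest control. The mean rose 1.36-fold, from 22.6 ± 1.18 to 30.8 ± 2.34 FPKM (SD, n = 3), with a log2 change of 0.43 and an interval of 0.27 to 0.59 (limma adjusted p = 0.00869). Its reads numbered 1194 to 1953 per library. The call held in all 6 fits that left out 1 library, with adjusted p up to 0.0389.

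IER5 (ENSG00000162783, chromosome 1, 181088712 to 181092899, plus strand) encodes a protein known to activate the heat shock factor HSF1 through the phosphatase PP2A. Controls were at 7.53, 9.14 and 8.59 FPKM and overexpression libraries at 10.25, 10.96 and 11.12. The groups did not overlap. The mean rose 1.28-fold to 10.8 ± 0.462 FPKM (log2 change 0.33, interval 0.15 to 0.50, limma adjusted p = 0.0278). The call was lost without control replicate 1 or 3 or without overexpression replicate 2 or 3, with adjusted p up to 0.0879.

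IER3 (ENSG00000137331, chromosome 6, 30743199 to 30744554, minus strand), also known as IEX-1, encodes an ERK substrate that affects cell survival. Controls were at 0.281, 0.162 and 0.212 FPKM, from 4 to 7 reads. Overexpression libraries were at 0.509, 1.20 and 0.846 FPKM, from 13 to 29 reads. The groups did not overlap, and the overexpression libraries spread widely, with a coefficient of variation of 40.4% where counting alone gives 21.5%. The mean rose 3.90-fold (log2 change 0.59, interval 0.22 to 0.96, limma adjusted p = 0.0437). IER3 entered this test through its overexpression libraries alone, as no control reached 0.5 FPKM. The log2 change was 1.53 with a pseudocount of 0.1 and 1.81 with voom on recovered reads. The call was lost in 5 of the 6 fits that left out 1 library, with adjusted p from 0.0929 to 0.118. It held at adjusted p = 0.0253 without overexpression replicate 1. It was also lost in the fit without a filter, at adjusted p = 0.0966.

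PHLDA1 (ENSG00000139289, chromosome 12, 76025447 to 76033932, minus strand), also known as TDAG51, is induced by ERK signalling and by stress. Controls were at 2.06, 1.96 and 1.82 FPKM and overexpression libraries at 2.96, 2.50 and 2.28. All 3 overexpression libraries lay above the controls, replicate 3 by a small margin. The log2 change of 0.28, with an interval of 0.06 to 0.49, did not pass (limma adjusted p = 0.0806). It passed with voom on recovered reads, at adjusted p = 0.0142 and a log2 change of 0.39.

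TRIB1 (ENSG00000173334, chromosome 8, 125430321 to 125438405, plus strand) was at 3.71, 4.46 and 4.12 FPKM in controls and 4.12, 3.77 and 3.52 FPKM with overexpression. The groups overlapped, with 2 of 3 overexpression libraries below the control mean. The log2 change was -0.08 with an interval of -0.28 to 0.11 (limma adjusted p = 0.516, exact permutation p = 0.4). For IER2, IER3, IER5 and PHLDA1 the exact permutation p was 0.1, the smallest the design allows. Of all tested genes, 17.8% had every overexpression library above every control.

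**Figure D2:**
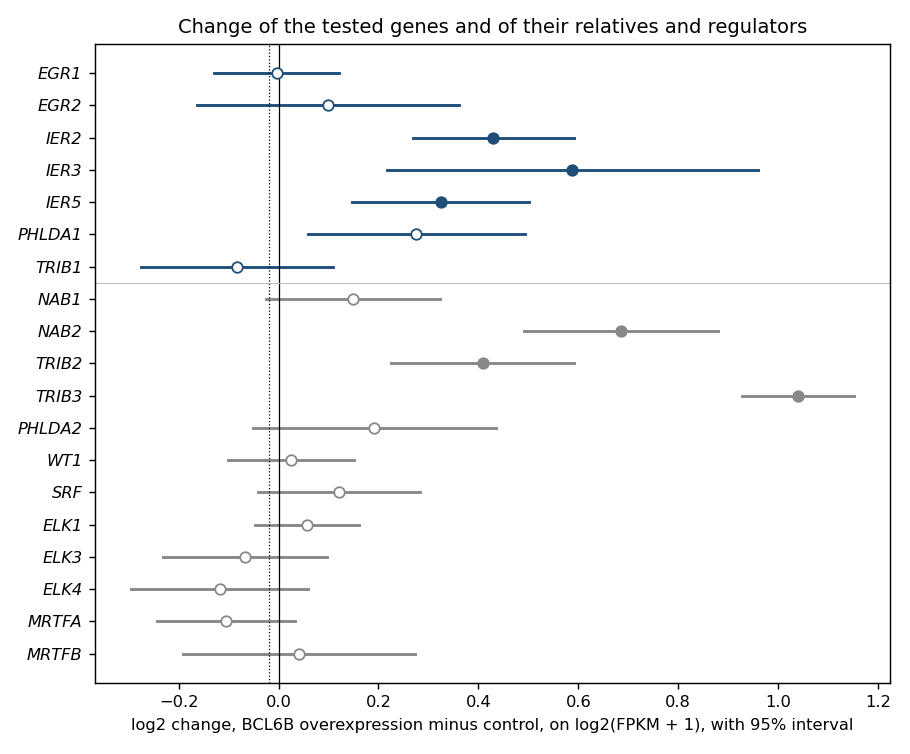
Log2 change on log2(FPKM + 1) with its 95% interval for the 7 tested genes (blue) and for tested relatives, EGR corepressors and the SRF complex (grey). Filled points passed the limma test, the dotted line is the median of all tested genes at -0.02, and the interval of EGR1 is centred near 0 while that of IER2 lies wholly above it.

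Reads from overlapping genes could bear on some of these values, but no such effect was shown or tested. In GENCODE 29, whose exon lengths equal the deposited gene lengths for 8 of 8 genes, antisense genes cover 30.8% of the IER2 exon bases (AC011446.2) and 26.5% of those of IER3 (IER3-AS1). Smaller antisense overlaps touch PHLDA1 and EGR3. The libraries were strand-marked, per the labels' protocols, but the use of strand in counting is not known here, so sense and antisense reads cannot be told apart. IER3-AS1 had 2 reads in the 6 libraries together and the other 4 antisense partners were listed at 0. EGR1, EGR2, IER5 and TRIB1 share no exon base with another gene, and BLAST found no copy of any member outside these antisense genes.

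The order of the 8 genes by level per length was the same in both groups, from IER2 through EGR1, IER5, TRIB1, PHLDA1, EGR2 and IER3 to EGR3. In controls no 2 neighbours in this order overlapped in FPKM, with IER2 1.40-fold above EGR1 and EGR1 1.92-fold above IER5. With overexpression IER2 stood 1.91-fold above EGR1, EGR1 stood 1.498-fold above IER5, and EGR2 and IER3 came to overlap. IER2 ranked above 88.6% of tested genes by mean level, EGR1 above 80.5% and IER3 above 3.19%.

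A ratio taken within a library does not depend on how libraries are scaled, and it sets the other genes against EGR1, a comparison chosen after the values were seen. IER2 per EGR1 was 1.40, 1.46 and 1.32 in controls and 1.754, 2.084 and 1.896 with overexpression. IER5 per EGR1 rose in the same manner, from 0.490, 0.560 and 0.508 to 0.638, 0.701 and 0.664. For both, each overexpression library exceeded each control (exact permutation p = 0.1 each, unadjusted, over 7 ratios, and the smallest the design allows). PHLDA1, IER3 and EGR3 per EGR1 were also fully separated upwards, at the same p, and EGR2 and TRIB1 per EGR1 overlapped, at exact permutation p = 0.4 and 0.5. IER2, IER5, PHLDA1, IER3 and EGR3 were already separated upwards in FPKM itself, as were 17.8% of all tested genes. The share of all genes separated per EGR1 was not computed.

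**Figure D3:**
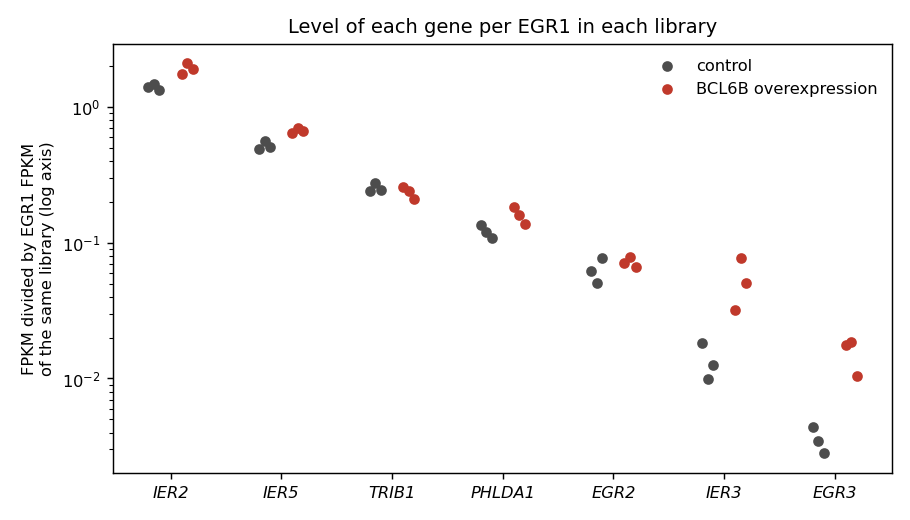
FPKM of each gene divided by the EGR1 FPKM of the same library, on a log axis, for 3 control and 3 overexpression libraries. IER2, IER5, PHLDA1, IER3 and EGR3 are higher per EGR1 in every overexpression library, while TRIB1 and EGR2 overlap.

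The profiles nearest to 3 of the genes were sought among 10621 other tested protein-coding genes, by the root mean square difference of log2(FPKM + 1) over the 6 libraries after centring each gene on its control mean. Nearest to EGR1 were APOOL, PIGL and ATXN1L, at differences of 0.0112, 0.0173 and 0.0185. Nearest to IER2 were E2F1, ZNF672 and SLC16A3, at 0.0176, 0.0267 and 0.0333, with E2F1 going from 29.4 to 40.5 FPKM. Nearest to PHLDA1 were S100A10, SYT11 and TSEN15, at 0.0285, 0.0363 and 0.0370. How many genes lie this near was not counted, and a small difference over 6 libraries in 2 groups was not tested as a link between genes. The log2(FPKM + 1) scale compresses the changes of low genes, such as SYT11 at 0.4585 and 0.7827 FPKM (control and overexpression means).

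Of the 4 tested relatives in the EGR, IER, PHLDA and TRIB families and WT1, 2 rose and 0 fell. These are 50% and 0%, against 8.18% and 10.1% of all tested genes. There were 0 falls at an unadjusted p under 0.05 and 0 with voom. TRIB3, a stress-induced pseudokinase, was at 73.0, 77.1 and 72.0 FPKM in controls and at 148, 154 and 158 FPKM with overexpression. It rose 2.07-fold (log2 change 1.04, limma adjusted p = 0.000165), in contrast to the overlapping groups of TRIB1. TRIB2, which shares the C/EBP-degrading role of TRIB1, rose 1.59-fold from 1.26 to 2.00 FPKM (limma adjusted p = 0.0152), and lost its call without control replicate 1 or overexpression replicate 2, at up to 0.0598. PHLDA2 was at 0.504 and 0.720 FPKM (adjusted p = 0.236). WT1, a zinc finger factor whose GC-rich sites resemble those of EGR1, was at 29.9 and 30.4 FPKM (adjusted p = 0.784). EGR4, IER5L and PHLDA3 were too low to test, at means of at most 0.169 FPKM.

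NAB1 and NAB2 encode corepressors that bind EGR1, EGR2 and EGR3 and hold back their activity, and NAB2 is itself a target of EGR factors. NAB2 was at 13.8, 14.7 and 12.3 FPKM in controls and at 20.5, 23.2 and 23.7 FPKM with overexpression. Every overexpression library lay well above the controls, and the mean rose 1.65-fold to 22.5 ± 1.72 FPKM (log2 change 0.69, limma adjusted p = 0.00388). NAB1, at 5.60 and 6.32 FPKM, did not pass (adjusted p = 0.204).

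The SRF complex, which carries ERK signals to CArG boxes, had no call in either direction among its 6 tested genes. Of all tested genes, 8.18% rose and 10.1% fell. The complex had 0 calls at an unadjusted p under 0.05 and 0 with voom (limma median log2 change -0.01, against -0.02 over all tested genes). SRF was at 10.8 and 11.8 FPKM and ELK1 at 18.7 and 19.5 FPKM. ELK3 and ELK4 were at 3.67 and 3.46 FPKM and at 5.54 and 5.03 FPKM. The coactivator genes MRTFA and MRTFB were at 4.81 and 4.40 FPKM and at 0.672 and 0.720 FPKM. These are transcript levels and say nothing of the phosphorylation through which ELK1 acts.

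Of 12 genes of the RAS, RAF, MEK, ERK and RSK chain 3 rose and 0 fell, with a median log2 change of 0.09. These are 25% and 0%, against 8.18% and 10.1% of all tested genes, in a list chosen with earlier results of these data known. There was 1 fall at an unadjusted p under 0.05 in limma, and 1 with voom. MAP2K1, which encodes MEK1, rose 1.28-fold to 32.1 ± 0.601 FPKM (limma adjusted p = 0.00547), and RPS6KA1, the gene of an ERK-activated kinase, rose 1.31-fold to 36.5 ± 2.42 FPKM (adjusted p = 0.00702). MAP2K2, for MEK2, rose 1.21-fold, and its call was lost without any 1 library other than overexpression replicate 1, at adjusted p up to 0.123. RPS6KA3 was higher and BRAF lower in every overexpression library, at 6.88 and 8.12 FPKM and at 2.34 and 2.00 FPKM, and neither passed (adjusted p = 0.0718 and 0.143). Of 10 feedback inhibitors of ERK signalling 4 rose and 0 fell, or 40% and 0%, with a median log2 change of 0.21. This list had 0 falls at an unadjusted p under 0.05 and 0 with voom. SPRY4, a Sprouty inhibitor, rose 1.68-fold and DUSP6, an ERK phosphatase, rose 1.54-fold (limma adjusted p = 0.00338 and 0.000538). DUSP5 and SPRED3 rose 1.66-fold and 2.11-fold, but SPRED3 was tested through its overexpression libraries alone. Among genes with a mean of at least 1 FPKM, 3 of 9 rose, against 1148 of all 12281 so tested. The call of DUSP5 was lost without any 1 library other than control replicate 2, at up to 0.0997. That of SPRED3 was lost without any 1 of the 6, at up to 0.112. DUSP7, SPRY1 and SPRED2 did not pass, at 1.247, 0.8811 and 0.9234 of control (limma adjusted p = 0.07567, 0.169 and 0.3338). The count of rises was 2 without control replicate 1, without any 1 of the overexpression replicates, with the replicate block and without the filter on low values, and without overexpression replicate 1 there was also 1 fall.

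Among 33 tested members of a list of 42 other immediate-early genes, 14 rose and 2 fell, with a median log2 change of 0.22. These are 42.4% and 6.06%, against 8.18% and 10.1% of all tested genes, in a list chosen with earlier results of these data known. JUND and JUN, the genes of AP-1 subunits, rose 2.81-fold and 2.30-fold (limma adjusted p = 0.000232 and 0.000294), to 55.7 and 14.1 FPKM. KLF10, a TGF-beta-induced repressor gene, and CSRNP1 rose 1.96-fold and 1.94-fold. ZFP36 and ZFP36L1, whose products speed the decay of AU-rich messenger RNAs, rose 1.84-fold and 2.55-fold. NFKBIZ, ZFP36L2 and MCL1 did not pass, at ratios of 1.29, 1.17 and 1.12 to control and adjusted p of 0.0632, 0.0717 and 0.0772. The falls were BTG1 and GADD45B, at 0.736 and 0.728 of control, both named after their values were seen.

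**Figure D4:**
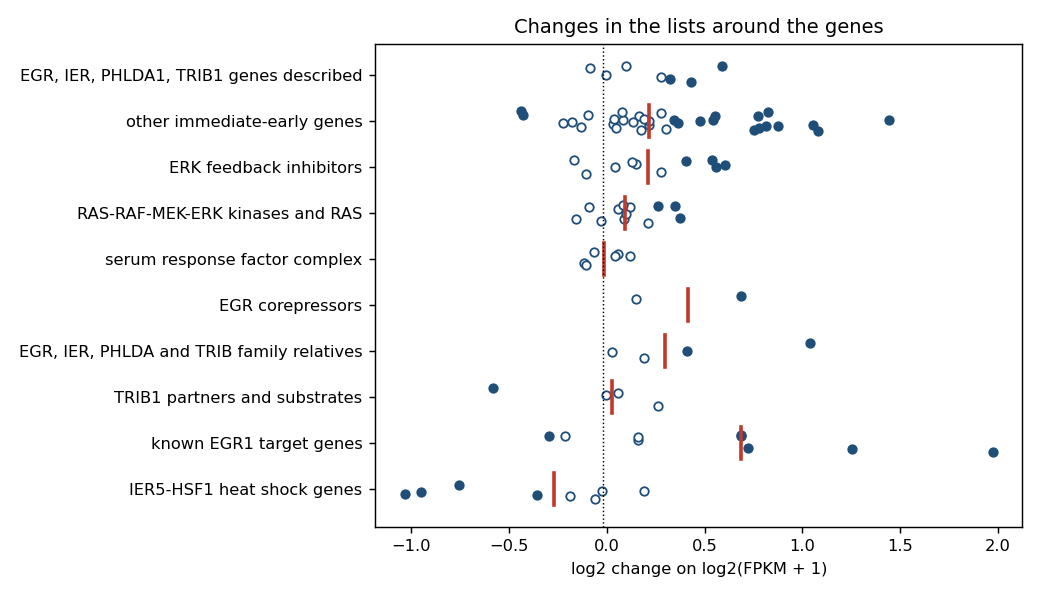
Log2 change of every tested gene in the 8 described genes and in 9 lists around them; filled points passed the limma test, red bars are list medians (not drawn for the 8) and the dotted line is the median of all tested genes. The SRF complex lies around 0, while most other immediate-early genes lie to the right and the heat shock genes that passed lie to the left.

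Several known targets of the EGR1 protein rose. Of 9 tested, 5 rose and 1 fell, with a median log2 change of 0.68. These are 55.6% and 11.1%, against 8.18% and 10.1% of all tested genes. The list was chosen with earlier results of these data known, so its shares are a description and not a test. TNF rose 4.08-fold, ICAM1, an adhesion molecule gene, rose 3.05-fold, PDGFA rose 2.43-fold and TGFB1 rose 1.64-fold, and NAB2, described above, is the fifth. The fall was CD44, at 0.805 of control, which lost its call without control replicate 3 (limma adjusted p = 0.0504). THBS1 and F3 stood at 0.683 and 1.13 of control and did not pass. All of these genes have other known regulators, and EGR1 binding was not measured.

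The partners of TRIB1 and IER5 complete the set. COP1, the ligase that TRIB1 recruits, was at 12.7 FPKM in both groups (limma adjusted p = 0.963). CEBPA, whose product TRIB1 sends for degradation, was at 10.5 and 12.8 FPKM (adjusted p = 0.0897), and CEBPB at 21.8 and 22.8 FPKM (adjusted p = 0.439). CEBPD, a further C/EBP gene, fell to 0.666 of control, from 61.2 ± 1.31 to 40.7 ± 3.90 FPKM (adjusted p = 0.0039). Of these 4 tested genes 1 fell and 0 rose, or 25% and 0%, against 10.1% and 8.18% of all tested genes. There was 1 rise at an unadjusted p under 0.05 in limma, and 1 with voom. For IER5, the list of HSF1 and heat shock genes had 4 falls and 0 rises among 8 tested, or 50% and 0%. All tested genes had 10.1% and 8.18%. The heat shock list had 1 rise at an unadjusted p under 0.05, 0 with voom, and 1 after median ratio scaling and after quantile normalization. HSP90AA1, HSPA8 and HSPH1, which encode chaperones, fell to 0.487, 0.514 and 0.580 of control, and HSPB1 fell to 0.775. HSF1, at 15.9 and 13.9 FPKM, and DNAJB1, at 8.00 and 9.30 FPKM, did not pass (adjusted p = 0.24 and 0.0692). The IER5 transcript thus moved opposite to those of HSP90AA1, HSPA8, HSPH1 and HSPB1, while the other 4 tested genes of the list had no call. The IER5 call itself was lost in 4 of the 6 fits that left out 1 library. Over all 9 lists, counting each gene once, 28 of 87 tested genes rose, SPRED3 among them, and 8 fell. These are 32.2% and 9.2%, against 8.18% and 10.1% of all tested genes. Because the lists were chosen with earlier results of these data known, the shares are a description and not a test of enrichment.

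Markers of other cells were followed beside these changes. Of 8 erythroid and megakaryocyte markers 5 were at 0 in every library, HBB among them, and the summed level was 0.762 to 0.932 FPKM in controls and 1.64 to 2.03 with overexpression, most of it ITGA2B. ITGA2B rose 2.13-fold (limma adjusted p = 0.0245), and lost its call without control replicate 1 or 3 or overexpression replicate 2 or 3, at up to 0.0829. The 7 T and NK cell markers summed to 3.57 to 4.85 and 5.40 to 6.87 FPKM, mostly from CD3D, with CD3E, CD3G, CD2 and CD8A near 0. NCAM1 of this list rose 2.96-fold from 0.305 FPKM, was tested through its overexpression libraries alone, and lost its call without overexpression replicate 2 (limma adjusted p = 0.0582). The 5 B cell markers summed to 6.82 to 7.74 and 7.02 to 7.90 FPKM with PAX5 at 0, and the 9 epithelial and fibroblast markers to 5.62 to 6.49 and 5.91 to 7.08 FPKM with 4 at 0. The 12 myeloid markers summed to 2150 to 2304 FPKM in controls and 1752 to 1939 with overexpression, mostly MPO. The mitochondrial share of reads was 4.17% to 4.44% in control and 4.49% to 4.97% in overexpression libraries. The part of these shifts in the changes above was not tested.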

How the data were processed

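The authors deposited FPKM per gene and library beside each gene's length, per the file headers. The submitters' processing notes name cutadapt 1.9 and build GRCh38. For aligner, counter and use of strand, the entry is: not given in the sources used here. FPKM times gene length gave whole multiples of 1 step per library for 100% of 139702 values above 0 (tolerance 0.01 reads), so reads per gene could be recovered. Libraries of the same group differed by a chi-square of at least 2.38 per gene, more than counting noise, so none was treated as a copy.

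Genes reaching 0.5 FPKM in 3 or more of the 6 libraries entered a limma 3.58.1 fit of log2(FPKM + 1) (R 4.3.3, mean-variance trend, 2-sided, Benjamini-Hochberg over 14662 genes). The log2(FPKM + 1) scale understates changes of low genes. Single values also had an exact permutation test. Alternatives were pseudocounts of 0.1 and 0.5, other filters, median ratio, quantile and TPM scaling, no trend, the replicate number as a block, voom on recovered reads, and leaving out each library, with the tested genes kept.

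The members, lists and tests were chosen with earlier results of these data known. All 8 members, the relatives, corepressors, SRF complex and TRIB1 partners are named; from each other list, up to 6 genes that passed and 3 that did not, by smallest adjusted p; a gene so taken is not reported here. Promoter windows are from RefSeq (GRCh38.p14). Overlaps and copies (BLAST+ 2.17.0, 98% identity over 200 bases) used GENCODE 29. Read counts are not molecule counts, because PCR copies could not be removed by molecular identifiers.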

Additional observations from a re-analysis of the deposited data

How the results depend on the processing

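IER2 rose in all 16 alternatives, at log2 changes of 0.39 to 0.49. EGR1, EGR2 and TRIB1 passed in none of their 16, with EGR1 between -0.04 and 0.03 and of either sign. IER5 lost its call in 5 of 16 and IER3 in 8 of 15, among them quantile normalization at 0.0513; PHLDA1 passed in 1 of 16. With a mean FPKM of at least 1, IER3 was not tested, and EGR3 was tested only without a filter. Leaving out 1 library gave 1 to 3 rises and 0 falls among the 8 genes, with 1 rise without control replicate 1 or 3 or overexpression replicate 2 or 3. Across all tested genes it gave 604 to 1014 rises and 618 to 1258 falls, against 1199 and 1488, and without the filter there were 716 and 872. With the replicate number as a block there were 1040 rises and 1288 falls, 2 rises among the 8 genes, and IER3 lost its call at adjusted p = 0.077. Same-numbered libraries had correlations of deviations of 0.0511, 0.110 and -0.0019. Control replicates 1 and 2 each correlated best with the overexpression replicate of the same number, and control replicate 3 with overexpression replicate 1. The numbers were not taken as pairs in the main fit, and the fit with the block gives the other reading. EGR2, EGR3 and IER3 rest on 4 to 83 reads per library.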
